A study of Mus musculus with 2 samples.

Results

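The regions described here are 807 peaks of DPPA2 binding that were shared by untreated and adriamycin-treated mouse embryonic stem cells and lay at an end of a single protein-coding gene. They were selected on 3 measured properties of the adriamycin peak. Its fold over local background was below 9, it overlapped an untreated peak by at least 1 bp, and its summit lay within 1000 bp of either end of exactly 1 protein-coding gene. These 807 members were drawn from 16229 adriamycin peaks, of which 5584 overlapped one of the 7043 untreated peaks. The fold, the overlap and the gene-end position therefore chose the members and are given as descriptions only. The members lay at 798 genes, which is 3.65% of the 21883 protein-coding genes on chromosomes 1 to 19, X and Y.

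Genomic sites of DPPA2 were mapped by ChIP-seq (chromatin immunoprecipitation, then sequencing) in R1/E cells, a mouse embryonic stem cell line grown on gelatin in serum with leukemia inhibitory factor. The untreated library came from cells with a genotype entry of WT, and the series' design text gives the cells of both libraries as p53+/+. The other library came from cells exposed for 8 h to adriamycin (doxorubicin), a topoisomerase II poison that breaks DNA, and its treatment entry reads apoptosis induction; its genotype entry holds the treatment and no allele. Both used the same antibody and carry the batch entry Day 0. Each group had 1 library, so no difference between them has a replicate check, no p-value is given, and every interval below covers counting error only.

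DPPA2 is a small chromatin protein with a SAP domain, expressed in pluripotent and germ cells, that works as a pair with DPPA4. In embryonic stem cells the pair is known for binding CpG-rich promoters, many of them carrying both activating and repressive histone marks, and for keeping some of them free of DNA methylation. It is also known as an upstream activator of Dux and the genes of the early embryo that Dux controls. CpG-rich promoters are common at widely expressed and developmental genes, and germline genes with CpG-rich promoters are among the loci silenced by DNA methylation in somatic cells.

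Promoter sequences from RefSeq (build GRCm38.p6, the same as mm10) show the range of DNA at the members' gene starts. Each runs 5′ to 3′ along its gene, from 250 bases before the annotated start to 50 after it, with every CpG in capitals. The first 3 are the germline genes of the lists whose adriamycin summit fell inside this stretch, and the last 2 are a CpG-dense and a CpG-poor promoter among the members with many summit fragments. Positions of summits are counted from 1 at the first base printed.
Dazl: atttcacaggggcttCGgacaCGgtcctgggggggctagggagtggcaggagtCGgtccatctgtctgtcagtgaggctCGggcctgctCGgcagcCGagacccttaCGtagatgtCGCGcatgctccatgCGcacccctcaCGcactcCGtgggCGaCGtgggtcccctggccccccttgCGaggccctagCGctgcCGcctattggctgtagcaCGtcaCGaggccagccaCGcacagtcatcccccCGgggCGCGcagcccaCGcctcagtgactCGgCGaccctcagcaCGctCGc
Sohlh1: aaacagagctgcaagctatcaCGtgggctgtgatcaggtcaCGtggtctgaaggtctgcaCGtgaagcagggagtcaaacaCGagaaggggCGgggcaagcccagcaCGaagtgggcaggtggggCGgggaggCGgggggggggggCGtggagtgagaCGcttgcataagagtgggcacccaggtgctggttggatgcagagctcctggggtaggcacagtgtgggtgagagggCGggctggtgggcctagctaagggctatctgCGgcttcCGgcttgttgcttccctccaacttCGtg
Slc25a31: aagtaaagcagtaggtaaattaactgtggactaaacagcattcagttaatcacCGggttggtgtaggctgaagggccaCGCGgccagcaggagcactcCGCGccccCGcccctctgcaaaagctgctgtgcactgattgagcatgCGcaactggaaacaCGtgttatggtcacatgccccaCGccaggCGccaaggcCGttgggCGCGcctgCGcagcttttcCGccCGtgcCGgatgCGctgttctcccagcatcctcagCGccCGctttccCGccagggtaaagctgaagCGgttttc
Abhd17c: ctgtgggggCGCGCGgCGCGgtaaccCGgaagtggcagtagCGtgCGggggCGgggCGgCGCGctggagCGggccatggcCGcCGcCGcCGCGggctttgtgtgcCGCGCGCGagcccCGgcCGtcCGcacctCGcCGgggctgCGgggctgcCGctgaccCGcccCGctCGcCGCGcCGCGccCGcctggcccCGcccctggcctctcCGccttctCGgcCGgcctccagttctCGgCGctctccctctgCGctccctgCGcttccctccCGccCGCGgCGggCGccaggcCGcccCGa
Vsig8: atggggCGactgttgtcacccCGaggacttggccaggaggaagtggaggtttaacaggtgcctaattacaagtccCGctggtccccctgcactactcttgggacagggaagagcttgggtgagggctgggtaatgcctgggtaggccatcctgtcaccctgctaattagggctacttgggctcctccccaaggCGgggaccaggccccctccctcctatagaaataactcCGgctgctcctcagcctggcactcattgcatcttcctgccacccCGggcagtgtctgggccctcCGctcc

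The Dazl stretch (chr17:50293571-50293870, minus strand) holds 28 CpGs, and the adriamycin summit lies over base 174. Sohlh1 (chr2:25847199-25847498, minus strand) has 14 CpGs, 3 copies of the GC box GGGCGG and 3 E-boxes (CACGTG), with the summit over base 127. In Slc25a31 (chr3:40708621-40708920, plus strand) the summit lies over base 90 of a stretch with 22 CpGs, 2 GC boxes and 1 E-box. Abhd17c (chr7:84151844-84152143, minus strand), a gene for an enzyme that removes palmitate from proteins, has 52 CpGs and 6 GC boxes, and its summit lies over base 214. Vsig8 (chr1:172555688-172555987, plus strand), encoding an immunoglobulin-domain membrane protein, has 7 CpGs and no GC box, with the summit over base 186. Vsig8 and Abhd17c were printed for their low and high CpG content, so they give no reference for the germline promoters. The median was 26 CpGs over promoters with a member at the start and 13 over all promoters. A match to these letters is a description of the sequence and shows no factor on it.

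The rule took either end of a gene, and most members lay at the start. The promoter table gave a strand for 638 members: 559 lay at the start (87.6%, exact Clopper-Pearson 95% interval 84.8 to 90.1) and 79 at the far end. For the other 169 the strand was not in the table, and their side was not assigned. At the start, adriamycin summits lay a median of 283 bp downstream of the start (quartiles 143 and 448.5), and 511 of 559 were inside the gene (91.4%, 88.8 to 93.6). In all, 347 of the 559 were 100 to 500 bp downstream (62.1%, 57.9 to 66.1). Untreated summits of the same 559 members lay a median of 308 bp downstream (148 and 481), with 502 inside the gene (89.8%, 87.0 to 92.2). Adriamycin summits were thus mostly inside the first stretch of the gene, and this side of the start was not part of the rule. The untreated peaks were taken by their overlap with these members, so the like position of their summits is not a separate result. For 40 of the 559 the nearest annotated start was another start of the same gene, not the outermost one from which the distance was taken. Summits in the 2 lists lay a median of 89 bp apart (42 and 162.5), and 443 of 807 were within 100 bp (54.9%, 51.4 to 58.4).

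**Figure D1:**
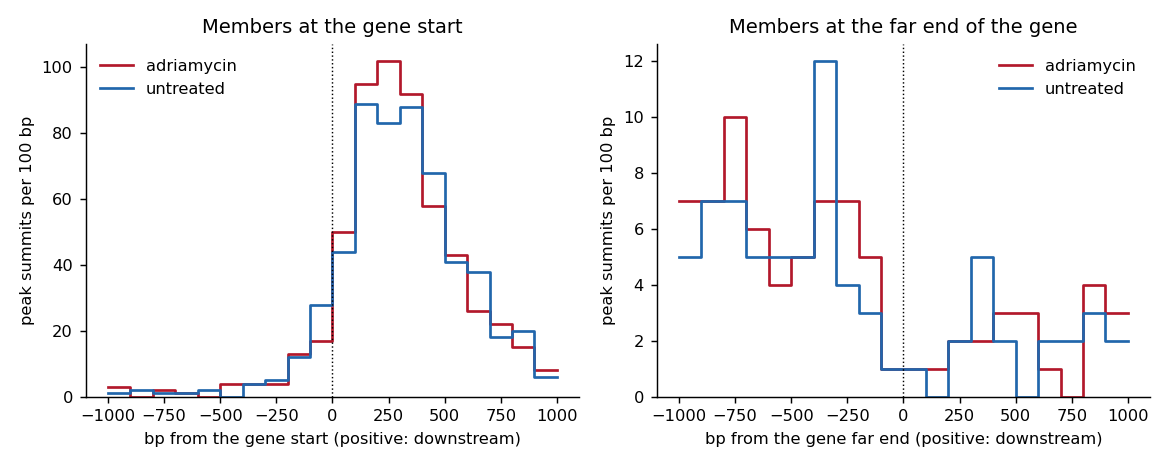
Adriamycin (red) and untreated (blue) peak summits per 100 bp against distance in bp from the gene start (left, 559 members) and from the far end (right, 79 members), with positive distances downstream. At the start, 347 of 559 adriamycin summits lie 100 to 500 bp downstream; at the far end most lie before the end of the gene.

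The 79 far-end members belonged to shorter genes, with a median length of 11071 bp against 44701 bp for start members, and 8 of them also had an annotated start of the same gene within 1000 bp. Of these summits, 59 lay inside the gene (74.7%, 63.6 to 83.8) and 20 beyond it. Their median was 18 fragments at the adriamycin and 16 at the untreated summit, where start members had 16 and 14. Some far-end members were among the strongest. Tex44, a testis-expressed gene, had 39 fragments under adriamycin and 26 untreated, with a summit 292 bp before the end of the gene. Tesc, which encodes the calcium-binding protein tescalcin, had 39 and 23, and Slc6a21, a solute carrier gene, had 34 and 19; both were picked after their values were seen.

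Genes with a member were longer than protein-coding genes as a whole, with a median of 39507.5 bp (quartiles 13971.5 and 91930, n = 798) against 17170 bp (5670 and 44339, n = 21883). The X chromosome held 6 members (0.743%) and 966 of the 21883 genes (4.41%). The share on X was 2.75% of all adriamycin peaks, 1.70% of adriamycin-only gene-end peaks, 1.14% of shared peaks inside genes and 3.46% of shared peaks between genes, each at the same limit on fold where one applied. The X copy number of the cells was not examined here. A lncRNA gene end lay within 1000 bp of 99 members (12.3%), and of 267 of the 2171 adriamycin-only gene-end peaks (12.3%). An annotated miRNA gene end lay as near to 6 members: Mir3081 beside Boc, Mir5131 beside Ddhd1, Mir5135 beside Plekhg3, Mir7036b beside Add1, Mir7238 beside Ankrd10 and Mir7666 beside Micu3.

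Start members stood at CpG-rich promoters. Across the 17491 protein-coding genes with a RefSeq promoter, the median stretch of 300 bases was 56.3% GC with an observed over expected CpG ratio of 0.577 and 13 CpGs. The 558 genes with a start member had medians of 66.3% GC, 0.810 and 26 CpGs. The quartiles of the ratio were 0.616 and 0.943. The 74 genes with a far-end member and no start member had medians of 57.8% GC and 0.437; their peaks lie at the other end of the gene from this stretch. Promoters were ranked by the CpG ratio and cut into 5 equal bins of about 3498 genes. A start member was present at 0.714% of genes in the bin of lowest ratio, then at 1.11%, 3.37%, 4.60% and, in the highest, 6.15% (5.37 to 6.99). Genes with an adriamycin-only start peak had shares of 1.23%, 3.97%, 8.66%, 12.1% and 15.4% in the same bins, and their median CpG ratio was 0.796. The order of the bins was the same for both sets of peaks, and peaks present in both libraries did not stand apart in it. A promoter entry existed for 632 of the 798 genes with a member (79.2%), which makes a check over all members void; the values here are for genes placed at their start by that same table.

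**Figure D2:**
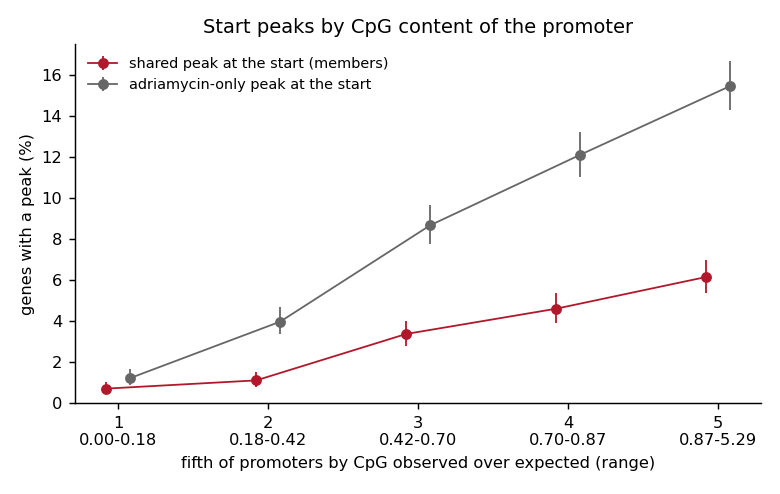
Share of genes (%) with a member at the start (red) or an adriamycin-only start peak (gray), for 5 equal bins of promoters ordered by observed over expected CpG (range under each bin); bars are exact 95% intervals. Members go from 0.714% to 6.15% and adriamycin-only peaks from 1.23% to 15.4%.

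Motif letters were counted on either strand of the same stretches. The GC box GGGCGG, which Sp and Klf factors bind, was in 72.2% of start-member promoters (68.3 to 75.9), in 72.6% of promoters with an adriamycin-only start peak and in 46.3% of all promoters. Within bands of GC content this difference was smaller above 55% GC. Among promoters of 65% GC and more, 89.9% of 317 with a start member and 88.7% of all held it. Between 55% and 65% GC the shares were 63.3% of 147 and 60.6%, and below 55% they were 26.6% of 94 (18.01 to 36.71) and 14.5%. TATAAA was in 5.02% of start-member promoters (3.36 to 7.17), 6.91% of promoters with an adriamycin-only start peak and 13.3% of all. In the same order, CCAAT was in 31.5% (27.7 to 35.6), 31.2% and 39.2%. The E-box CACGTG was in 9.68% (7.35 to 12.4), 10.4% and 7.91%. For these motifs the adriamycin-only shares lay inside the intervals of the start members, and no split by GC content was made. Shares for the ETS motif CCGGAAG (11.8% and 11.9%), the E2F motif TTTCCCGC (1.43% and 1.46%), the NRF1 core GCGCATGCG (2.69% and 2.41%) and the CRE TGACGTCA (3.23% and 2.33%) lay near those of all promoters. The remaining 3 were the YY1 core AAGATGGCG (1.61% and 1.92%), the ZBTB33 core TCTCGCGAG (0.717% and 1.03%) and the octamer ATGCAAAT (0.896% and 1.72%). The letters GGGCGG themselves contain a CpG, and TATAAA contains none.

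The members were peaks of modest height in both libraries. The deposited fold had a median of 5.43 under adriamycin (3.13 to 8.86, with 9 as the limit of the rule) and 4.76 untreated (3.01 to 11.2). The deposited lists carry no read totals, so the fragments piled up at each summit were recovered from the fold and its p-value. The adriamycin summit held a median of 16 fragments (quartiles 14 and 20, range 8 to 125) and the untreated summit 14 (12 and 17, range 8 to 118). A summit of 16 fragments has an exact Poisson 95% interval of 9.15 to 26.0, which limits every comparison of single genes below. Local background around the members was a median of 2.08 times the genome-wide level under adriamycin and 1.86 times untreated. The folds were not checked against an input profile.

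The number of fragments was compared between libraries after scaling each to its genome-wide background, which was 1.03 fragments in the adriamycin library and 1.19 in the untreated one. The median ratio of adriamycin to untreated was 1.33 (quartiles 1.09 and 1.57, range 0.542 to 2.97), and 689 of 807 members were above 1 (85.4%). Without scaling the median was 1.14, with 515 members above 1 (63.8%), 218 below (27.0%) and 74 equal, so the split moves with the scaling. The deposited fold was higher under adriamycin for 585 members (72.5%). A scaled ratio of at least 2 was found for 29 members (3.59%), against 6.44% of the 5574 shared peaks for which both summits were recovered. No member was at or below the inverse of that ratio, and only 6 of those 5574 shared peaks were. The limit on the adriamycin fold bounds the members' ratios from above, so 3.59% and 6.44% are not comparable as a result. Over the 807 members, Spearman's rank correlation between the fragments of the libraries was 0.446, a description that shares gene position and local background.

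**Figure D3:**
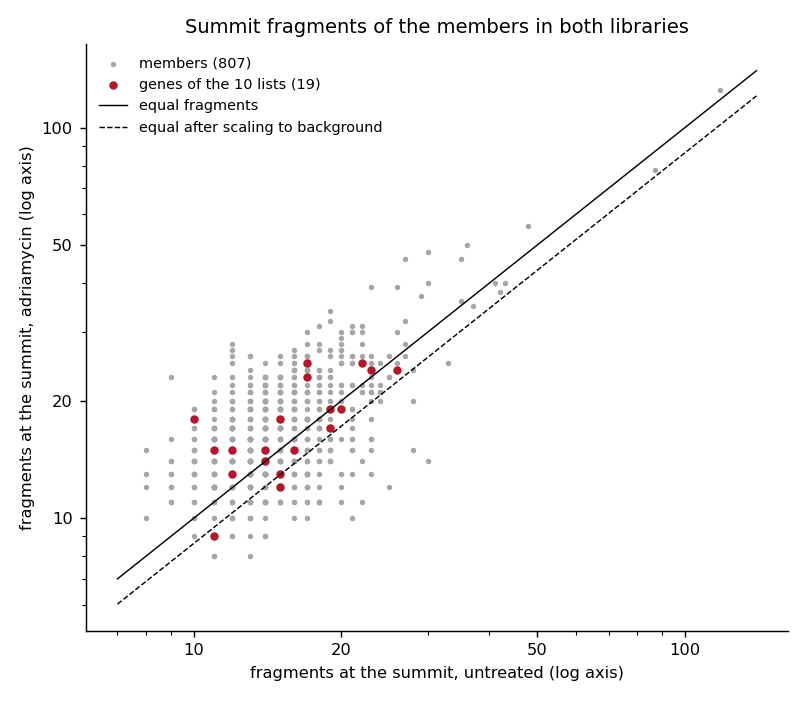
Fragments at the summit in the adriamycin library against the untreated library (both axes log) for the 807 members (gray) and the 19 at genes of the lists (red). The solid line marks equal fragments and the dashed line equal values after scaling to background; 689 members lie above the dashed line and 515 above the solid one.

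Among the 235 members with at least 20 fragments in either library, the extremes of the scaled ratio were picked by that ratio and are listed with no test. Papln, encoding the extracellular matrix protein papilin, had 23 fragments under adriamycin and 9 untreated, a scaled ratio of 2.97 (1.32 to 7.28); its summit lay 882 bp beyond the far end of the gene. Ckap4, a membrane protein of endoplasmic reticulum sheets, had 27 and 12 (2.61, 1.28 to 5.66). Zfp598, a ubiquitin ligase that senses collided ribosomes, had 26 and 12 (2.51, 1.22 to 5.47). Synrg, an adaptor protein of vesicle transport, had 23 and 11 (2.43, 1.14 to 5.51), and Ccer1, a coiled-coil gene, had 25 and 12 (2.42, 1.17 to 5.28). The lower bounds of these ratios were above 1, but the genes were picked as the highest of 235.

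At the other extreme, Tmeff1, a membrane protein with EGF-like and follistatin-like domains, had 10 fragments under adriamycin and 21 untreated, a ratio of 0.553 (0.232 to 1.23). The far-end member of Mapkapk2, a kinase activated by p38, had 12 and 25 (0.557, 0.255 to 1.15). Ust, which adds sulfate to chondroitin and dermatan chains, had 11 and 22 (0.580, 0.254 to 1.25). Zcchc7, a zinc-knuckle protein of nuclear RNA surveillance, had 11 and 20 (0.638, 0.276 to 1.40), and the kinase gene Dyrk3 had 13 and 23 (0.656, 0.305 to 1.35). The interval of each of these ratios reached above 1. Krtap10-10, a hair keratin-associated protein gene, appeared at both extremes: one of its members had 28 and 12 (2.71, 1.33 to 5.85) and the other had 12 and 20 (0.696, 0.310 to 1.496). Summed over both, this gene had 40 fragments under adriamycin and 32 untreated.

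Members just below the limit on fold were Actr3b, a relative of the actin-related protein Arp3 (fold 8.86; 30 fragments under adriamycin and 20 untreated), and Krt72, a keratin of the hair follicle's inner sheath (8.84; 31 and 18). Next came Gm3752 (8.77; 19 and 13), Prss56, a serine protease known for its role in eye size (8.66; 48 and 30), and Gm40369 (8.63; 23 and 25). Tex44 followed at 8.62 (39 and 26), with Rundc3b, a RUN domain gene, at 8.62 (24 and 28) and Rab3ip, an activator of Rab8, at 8.52 (30 and 17). Gm40369 and Rundc3b had the higher count in the untreated library and the other 6 in the adriamycin library. Just above the limit, and so not members, were peaks at Gm38418, Gm2237 and Gm8108 with folds of 9.09, 9.12 and 9.14, all on chromosome 14. At the limit on distance, Ampd3 (977 bp), Gm13285 (985 bp) and Prkab1 (997 bp) were the last inside, and Runx1t1 (1004 bp), 4930467E23Rik (1005 bp) and Kmt5c (1011 bp) the first outside. The largest count of all was at Asmt, the last enzyme of melatonin synthesis, named after its value was seen, with 125 fragments under adriamycin and 118 untreated over a local background 13.7 times the genome-wide level.

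Several members lay at 7 genes, of which 6 are described. Gm36079 had 4, with 28, 26, 25 and 35 fragments under adriamycin. The first 2 of these overlapped the same untreated peak, with 27 fragments, and the others overlapped untreated peaks with 33 and 37. In all, 4 of the 807 members shared their untreated peak with another member. Ppp2r5a, a regulatory subunit of protein phosphatase 2A, had a member at either end of a gene spanning chr1:191351981-191397041. Its start-side member had 36 and 35 fragments with the summit 613 bp downstream of the start, and its far-end member had 15 and 17. Mapkapk2 also had one at either end, and its start member had 14 under adriamycin and 12 untreated, unlike the 12 and 25 at the far end. Gm17353 had 16 and 11 under adriamycin and 14 and 9 untreated. Dynlt1b, a dynein light chain gene of a copied locus, had 56 and 78 under adriamycin and 48 and 87 untreated. Reads from near-identical copies cannot be placed with certainty. This may concern Dynlt1b, Krtap10-10 and some of the 59 members (7.31%) at genes with predicted names (Gm, Rik or LOC). Which of the 59 lie at such copies was not examined.

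Germline genes had the highest share among the 10 gene lists. Of 49 germline genes, 5 had a member (10.2%, 3.40 to 22.2), beside 3.65% of all protein-coding genes, and the interval includes that background. Dazl, an RNA-binding protein that licenses germ cell development, had 24 fragments under adriamycin and 23 untreated, with the summit 77 bp upstream of the start (peak chr17:50293299-50294111). Sohlh1, a transcription factor of early spermatogonia and oocytes, had 19 and 20, with the summit 124 bp upstream. Slc25a31, the ADP/ATP carrier of germ cells, had 15 and 11, at 161 bp upstream. Mael, a protein of the piRNA pathway, had 14 and 14, at 87 bp downstream, and Ddx4, the germ cell RNA helicase also called Vasa, had 13 and 12, at 672 bp downstream. At none of the 5 did the counts of the libraries differ beyond their counting intervals. Counting gene-end peaks of every kind, 20 of the 49 genes had one under adriamycin and 7 without treatment, beside 16.0% and 5.78% of all protein-coding genes.

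Of 42 p53 pathway genes 2 had a member (4.76%). Ckap2, a microtubule-associated protein, had 25 fragments under adriamycin and 17 untreated, a scaled ratio of 1.71 (0.890 to 3.37), with the summit 143 bp downstream of the start (peak chr8:22185515-22185860). Ei24, an endoplasmic reticulum protein first found as p53-induced, had 12 and 15, at 115 bp downstream. The libraries did not differ at either beyond counting error. The DNA damage list had 1 member in 42 genes, at Cdc25b, the phosphatase that activates cyclin-dependent kinase at mitotic entry, with 15 and 12 fragments. The apoptosis list had none in 46 genes, which allows a share of up to 6.52%. Of those genes, 8 (17.4%) had a gene-end peak of some kind in the adriamycin list, near the 16.0% of all protein-coding genes. The shares of genes with a member, including that of 0, lay on both sides of the 3.65% background and are too few to rank.

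The Wnt list had 4 members in 54 genes (7.41%, 2.06 to 17.9), an interval that includes the 3.65% background. The ligand gene Wnt6 had 24 fragments under adriamycin and 26 untreated, with the summit inside the far end of the gene, 941 bp before it. The receptor gene Fzd8 had 15 and 16 on chromosome 18, where the table gives no strand. Lgr4, a receptor for R-spondins that strengthens Wnt signals, had 18 and 15, at 347 bp downstream of the start. Dvl1, which relays the signal from Frizzled receptors, had 15 and 14, at 171 bp downstream. None of the 4 pairs of counts differed beyond counting error.

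Chromatin regulators had 5 members in 84 genes (5.95%, 1.96 to 13.3), an interval that includes the 3.65% background. Among them was an enzyme of each Polycomb complex. Ezh2, the H3K27 methyltransferase of Polycomb repressive complex 2, had 13 fragments under adriamycin and 15 untreated (peak chr6:47594616-47595129, summit 552 bp downstream of the start). Rnf2, the ubiquitin ligase of Polycomb repressive complex 1, had 19 and 19 (peak chr1:151500480-151500797, 381 bp downstream). The acetyltransferase gene Kat2b had 25 and 22 (peak chr17:53566866-53567754), at 266 bp downstream, and the deacetylase gene Hdac4 had 17 and 19 at its far end. Kmt2c, an H3K4 methyltransferase of enhancers, had 18 and 10 (peak chr5:25498161-25498494), a scaled ratio of 2.09 with an interval of 0.912 to 5.06. Kmt2c was thus the list gene with the highest ratio, and its interval still included 1. Pluripotency genes had 1 member in 38, at Gbx2, a homeobox gene downstream of LIF and Stat3 (23 and 17 fragments, 197 bp downstream). Genes of the 2-cell stage had 1 in 27, at Gm4340 (9 and 11, at the far end). There was none among 37 imprinted genes (up to 8.11% allowed by 0) or 82 developmental transcription factors (up to 3.66%). Over the 10 lists together, 19 of 496 genes had a member (3.83%, 2.32 to 5.92), next to the background of 3.65%.

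**Figure D4:**
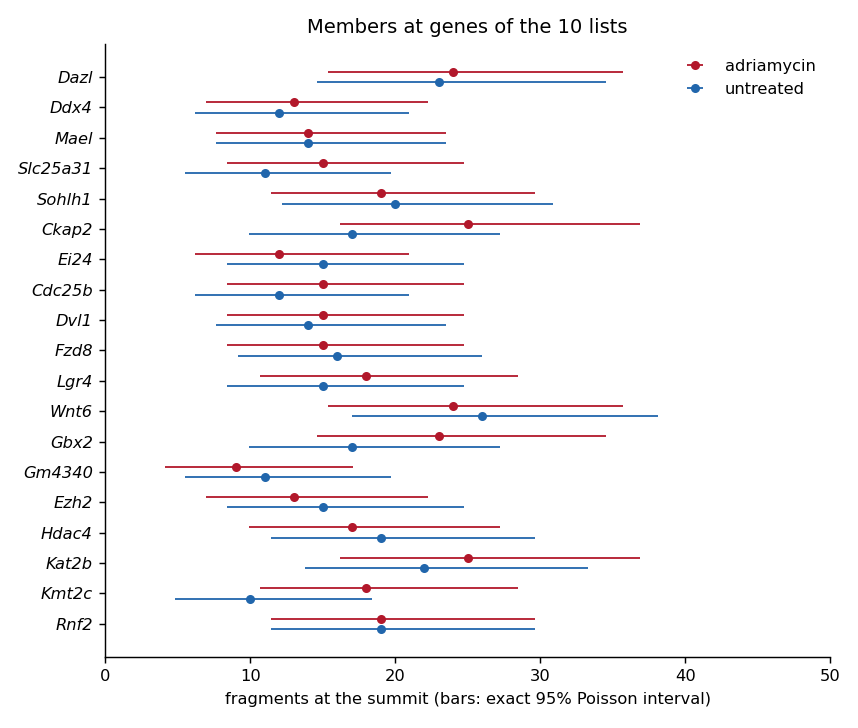
Fragments at the summit under adriamycin (red) and untreated (blue) for the 19 members at genes of the 10 lists, with exact 95% Poisson intervals. The intervals of the libraries overlap for every gene; Dazl, Kat2b, Ckap2 and Wnt6 have the higher counts and Gm4340 the lowest under adriamycin.

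Gene families taken by symbol differed widely in how many genes had a member. The genes named from the families beyond the lists and extremes above were chosen after their values were seen. MAP kinase cascade and Dusp genes had 7 in 76 (9.21%, 3.78 to 18.1), beside 3.65% of all protein-coding genes. Among them the kinase Map3k5 (Ask1), which relays stress signals to JNK and p38, had 25 and 16 fragments, Mapk9 (Jnk2) 13 and 15, and the phosphatase Dusp5 12 and 11. Keratins had 6 in 53 (11.3%, 4.27 to 23.0), namely Krt33a, Krt33b, Krt4, Krt72, Krt75 and Krt79. Their counts ran from 14 to 31 under adriamycin and from 11 to 18 untreated. The CpG ratio of the promoter was 0.136 for Krt33b, 0.370 for Krt75, 0.522 for Krt72 and 0.107 for Krt79. Each was under the lower quartile of start members as a whole. These values lay on both sides of 0.270, the median of 36 keratin promoters.

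Other families had few members or none. Olfactory receptors had 6 in 1110 genes (0.541%) and vomeronasal receptors 1 in 355 (0.282%). No member lay at 100 cytosolic ribosomal protein genes (up to 3.00% allowed by 0), 103 core histone genes (up to 2.91%), 39 Hox genes (up to 7.69%) or 56 translation initiation factor genes (up to 5.36%). Zinc finger genes named Zfp had 11 in 397 (2.77%) and solute carriers 16 in 375 (4.27%), on either side of the 3.65% background. The rule leaves out a summit near the ends of several genes, and 71 shared peaks were of that kind.

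A further 5 families were picked because several members were seen, so their shares are descriptions and support nothing. The share over all protein-coding genes was 3.65%. Ubiquitin-conjugating Ube2 enzymes had 8 in 37 genes (21.6%): Ube2d1, Ube2e1, Ube2h, Ube2j1, Ube2n, Ube2q2, Ube2r2 and Ube2w. Ube2d1, a broad-range enzyme, had 16 fragments under adriamycin and 23 untreated, and Ube2n, which builds K63-linked chains, had 11 and 12. Enzymes that build or sulfate glycosaminoglycans had 9 in 43 (20.9%). Among them were Chsy1, which polymerises chondroitin (21 and 15), and Hs6st1, which sulfates heparan (22 and 20). PHD finger Phf genes had 5 in 22 (22.7%), with Phf21b at 24 and 13 and Phf3 at 18 and 16. Sorting nexins and Vps proteins had 9 in 65 (13.8%), and Golgi glycosyltransferases 11 in 81 (13.6%). Across these families the counts of single genes were between 8 and 30 in the adriamycin library.

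**Figure D5:**
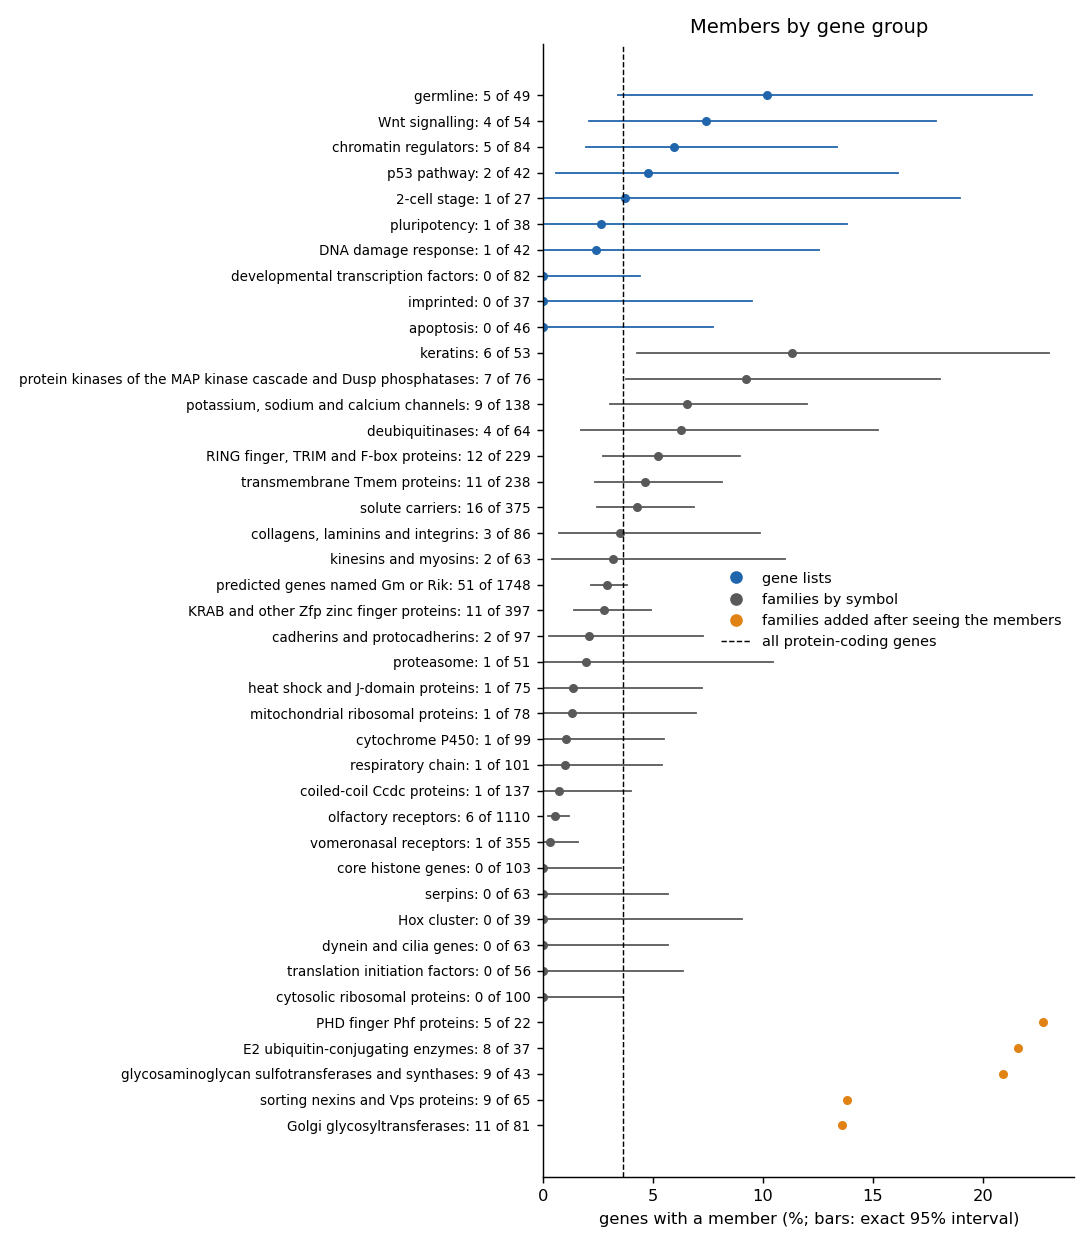
Share of genes (%) with a member in the 10 lists (blue), 26 families by symbol (gray) and 5 families added after the members were seen (orange); bars are exact 95% intervals, not drawn for the added families, and the dashed line is the 3.65% of all protein-coding genes. Keratins and MAP kinase genes lie highest among the families by symbol, and olfactory and vomeronasal receptors near 0.

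The members were set beside the 3 most similar groups of peaks at the same limit on fold. The 2171 adriamycin-only peaks at 1 gene end had a median fold of 4.63, 13 fragments and a width of 303 bp, against 5.43, 16 and 446 bp for the members. Of the 1671 with a known strand, 1478 were at the start (88.5%, 86.8 to 89.9, against 87.6% of members), a median of 256.5 bp downstream (against 283 bp), and 87.8% of them were inside the gene (against 91.4%). The intervals for the start side overlapped, so the 2 groups were not told apart by it. The 1496 shared peaks inside genes had a median of 17 fragments under adriamycin and 15 untreated and a scaled ratio of 1.31, and the 2511 between genes had 16 and 14 and a ratio of 1.26. Summits within 100 bp of each other made up 64.0% (61.5 to 66.4) of the former and 66.3% (64.4 to 68.2) of the latter, against 54.9% (51.4 to 58.4) of members. The interval of the members lay below both, while their median width of 446 bp was above the 388.5 bp and 402 bp of those groups. Median folds of those groups were 5.66 and 6.33, both above the 5.43 of the members. Whether width or fold sets the distance between summits was not tested.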

How the data were processed

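DPPA2 ChIP-seq peak lists of 1 untreated and 1 adriamycin library were used as deposited. MACS3 3.0.0b1, Bowtie2 2.5.1, deepTools 3.5.1, FastQC 0.12.1, SAMtools and the build mm10 appear in the submitters' processing notes. How peaks were filtered, and whether an input was used, is not given in the sources used here. Peaks were called per library by the authors. The deposited fold is the ratio of the summit over local background, its −log10 p and −log10 q come from the authors' caller as deposited, and the deposited score is 10 times −log10 q. None is scaled between libraries.

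Summit fragments were recovered as the whole number that gives both the fold, (fragments + 1)/(background + 1), and −log10 p from a Poisson upper tail, matched within 0.001. This worked for 99.9% of peaks of either list. It was checked on simulated data. The lowest recovered background was taken as the genome-wide level. Intervals are exact 95% (Clopper-Pearson, Poisson, or conditional binomial for ratios). A count of 0 was taken to allow up to 3.

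Gene positions, strands and promoters came from RefSeq tables of GRCm38.p6 (promoters for 17491 of 21883 protein-coding genes, 79.9%). Promoter features use GC content, observed over expected CpG and 11 motifs. Where a member's strand was not in the table its side was not assigned. One gene with several members and 2 of the families are not reported here. No genome was used, so sequence under the summits was not read.

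The members, the 10 lists and the 27 families were chosen with earlier results of these data known; 6 families were added after the members were seen, and the pattern of 1 family was corrected after the files were read. Genes were named by rule: the 8 highest folds below 9 and the 3 just above, the 6 highest and 6 lowest scaled ratios among members with at least 20 fragments (predicted genes left out), list genes with a member, genes with several members, and promoters holding the summit. Of the 8 promoters the rule chose, 5 are printed. Alternatives were a window of 500 or 2500 bp, a q of 1e-05, 50% reciprocal overlap, lists of equal length and no limit on fold, with 1 more added later. Python 3.11.15, numpy 2.4.6, pandas 2.3.3, scipy 1.17.1 and matplotlib 3.10.9 were used.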

Additional observations from a re-analysis of the deposited data

How the results depend on the processing

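Each group had 1 library, so leaving out replicates was not possible. No paired analysis was possible because each group had a single library. With a q of 1e-05 in both lists, 254 peaks at 250 genes remained of 807 at 798, with 8 list genes against 19, a start share of 83.3% against 87.6%, summits within 100 bp in 68.9% against 54.9%, and a scaled ratio of 1.26 against 1.33. With lists of equal length there were 487 peaks at 483 genes and the ratio was 1.47; by construction fewer peaks enter both settings. With 50% reciprocal overlap, summits were within 100 bp in 62.5%. With a window of 2500 bp the start share was 79.0% and the median distance from the start 312 bp; with 500 bp they were 92.4% and 222 bp, which the window itself bounds. For the other shifts the cause was not tested. Without predicted genes and members on high local background, an alternative chosen after seeing the data, there were 739 peaks at 735 genes, with 18 list genes, a start share of 89.0%, a distance of 287 bp and a ratio of 1.34. In every setting run, most members with a known strand lay at the start and the median scaled ratio was above 1. No setting changed the scaling, and without it the median over all members was 1.14. Depth limits single genes, since a summit of 16 fragments has a wide counting interval.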
